A study of Homo sapiens with 24 samples.

Results

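The comparison described here is that of the insoluble cytoplasmic fraction of NaAsO2-treated U2OS cells with the insoluble fraction of control cells (Ctrl). It rests on 6 of the 24 libraries, chosen by their labels: 3 replicates labelled Ars_insoluble and 3 labelled Ctrl_insoluble. The U2OS line was derived from a human osteosarcoma. Treated cells received 500 µM NaAsO2 for 60 min, and the Ctrl cells 0.12% DMSO for 2 h with no NaAsO2. Of the other libraries, the soluble fractions of the same lysates and the insoluble fractions of cells given 6 µM RK-33, an inhibitor of the RNA helicase DDX3, with 1 h of pre-treatment before NaAsO2 or alone, serve as points of comparison. All libraries come from 1 cell line. By the methods of the study the experiment was repeated for each replicate, and the labels name no cultures or dates. The p-values of the gene tests rest on the spread between replicates over all 24 libraries in 8 groups, not on the spread of the 6 libraries alone. The insoluble fraction is the pellet left after nuclei were removed and the lysate was spun again, and it can hold stress granules and P-bodies together with whatever else sediments at that speed. In such bulk libraries, less RNA in each cell and RNA from fewer cells cannot be told apart.

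Arsenite reacts with thiols and induces oxidative stress. It halts most translation initiation through phosphorylation of eIF2, and untranslated mRNAs then gather with RNA-binding proteins in stress granules, while P-bodies hold mRNAs bound by the decapping machinery. In parallel it activates stress kinases, which switch on immediate early genes such as FOS and EGR1, and it activates the transcription factors HSF1, NRF2 and MTF1, which drive chaperone, antioxidant and metallothionein genes. mRNAs of secreted and membrane proteins, in contrast, are normally translated on the surface of the endoplasmic reticulum (ER). By the methods of the study the cells were lysed with a detergent, and whether the pellet held ER membrane was not tested.

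The labelled cell line was checked against marker genes. Of the osteoblast-lineage and mesenchymal markers, RUNX2 (45.4 to 89.9 CPM over the 6 libraries), COL1A1 (1166 to 7843 CPM), SPARC (764 to 1869 CPM) and VIM (258 to 800 CPM) were expressed, whereas ALPL (5.41 to 9.61 CPM) and SPP1 (1.07 to 6.93 CPM) were low, COL1A2, BGLAP and SP7 did not exceed 2.25, 0.541 and 0.593 CPM, and IBSP was at 0 counts in every library. CPM here are edgeR's counts at a common library size after scaling with TMM factors, which set the bulk of genes equal between libraries, so that each value is relative to the other RNAs of its library. Epithelial and blood cell markers were low, with EPCAM at 1.76 to 3.96 CPM, CDH1 at 3.79 to 6.55 CPM and PTPRC at 0.325 to 1.42 CPM. The 6 libraries held 13345445 to 18005839 exon plus intron counts. A single library stood apart: replicate 3 of NaAsO2 correlated with the other two NaAsO2 replicates at r = 0.931 and 0.940 across genes (log2 CPM), against r = 0.992 to 0.994 for every other pair of replicates. In that library the median log2 ratio to the Ctrl mean ran from -0.96 for the genes in the lowest of 10 GC content classes to 1.10 for those in the highest, and RN7SL1, the RNA of the signal recognition particle, took 5.79% of the exon counts against 0.426% to 0.868% in the other 5. Its part in the calls and gene lists of the comparison was therefore measured by leaving the library out. The group counts of differences between fractions and with RK-33 include it throughout.

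**Figure D1:**
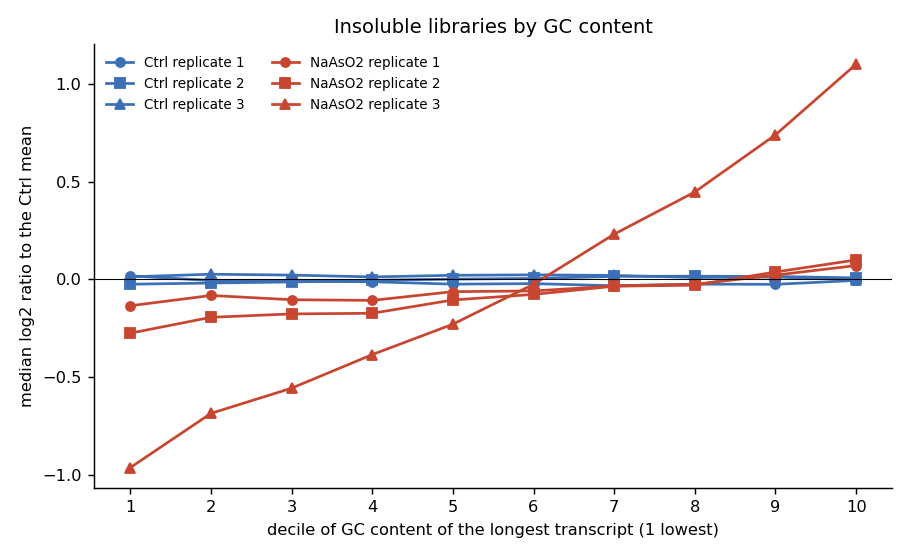
Median log2 ratio of each insoluble library to the mean of the 3 Ctrl libraries (y axis) for genes in 10 classes of GC content of their longest transcript (x axis, 1 lowest). The 3 Ctrl libraries lie flat near 0 and NaAsO2 replicates 1 and 2 stay between -0.28 and 0.10, whereas NaAsO2 replicate 3 climbs from -0.96 to 1.10.

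After NaAsO2, 25 of 32 immediate early genes and 9 of 14 feedback regulators of the same signals rose in the insoluble fraction. So did 3 of 6 metallothionein list members. In the same fraction 5 of 24 ER chaperone and unfolded protein response genes and 8 of 36 secreted protein genes fell. Decreases were also seen for 9 of 22 members of the snoRNA host list and for the nuclear RNA MALAT1. Of 17666 genes tested by edgeR's quasi-likelihood test, 2470 (14%) passed a Benjamini-Hochberg adjusted p of 0.05 and a log2 fold change of at least 1 in size, 991 of them higher (5.61%) and 1479 lower (8.37%). Without NaAsO2 replicate 3, 1517 genes passed (8.58%), 452 higher (2.56%) and 1065 lower (6.02%), and 1137 genes passed both ways. The calls followed GC content as that library did: in the highest of the 10 GC classes 375 genes were higher and 15 lower (42 and 29 without NaAsO2 replicate 3), and in the lowest class 18 were higher and 326 lower (48 and 165 without it). With each library's trend on GC content removed 762 genes were higher and 988 lower, and of 115 genes and effects selected for naming 94 kept their call, 20 lost it and 1, GAPDH, gained it (-1.02). Most of these were chosen for being called, and of all 2470 calls 1322 passed with the trend removed. The lost calls include DNAJB1 (0.95), HSPA1A (0.83), LUM (-0.99) and FTX (-0.77). With the 6 libraries fitted alone, 931 genes passed. The split between directions moved with the scaling: 1198 higher and 1249 lower with RLE factors, and 689 higher and 1668 lower with library size alone, where the median of all genes was -0.10 against -0.02 with TMM. Gene groups are described below by their counts and by their median log2 fold change beside this median of all genes, and the lists were drawn up with earlier results of these data known. The count of a list without NaAsO2 replicate 3 is of the members that passed there, which need not be the same ones. The genes with the smallest adjusted p, 12 in each direction, were taken from those with a mean of at least 10 CPM that also passed without NaAsO2 replicate 3, so that a separation of their groups follows from the choice.

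**Figure D2:**
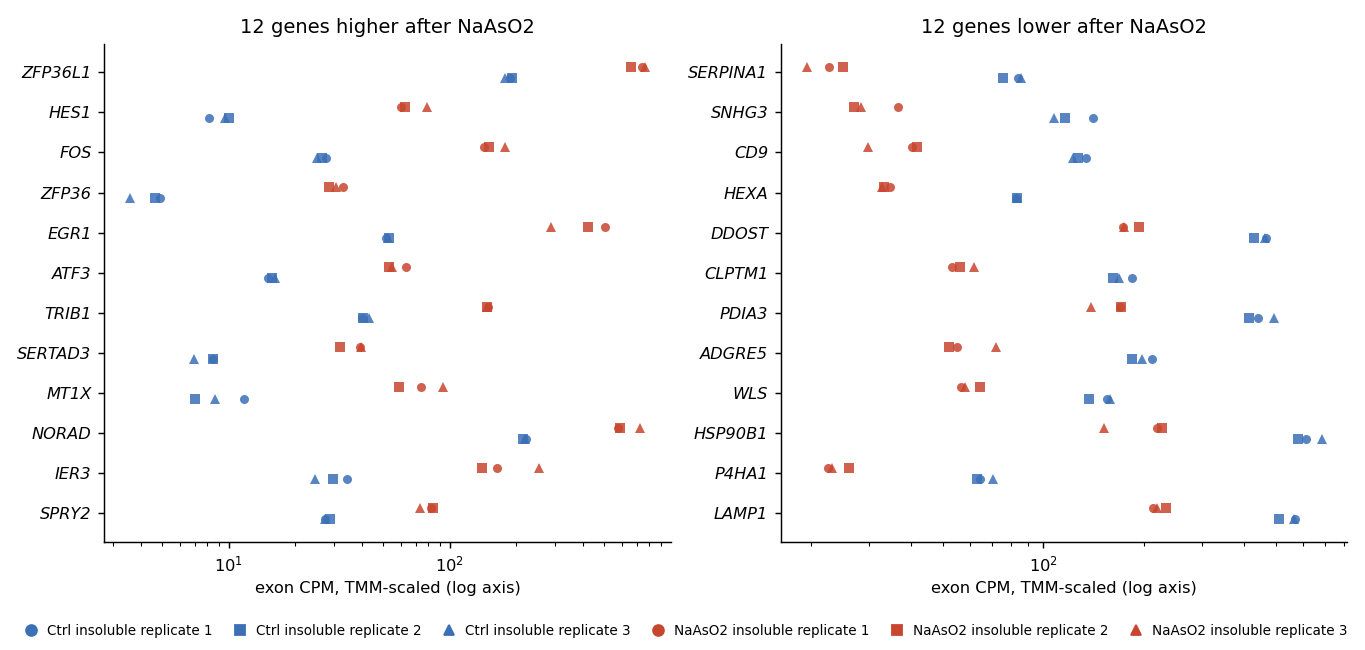
Exon CPM (log axis) of the 12 genes with the smallest adjusted p in each direction, with 1 point per library, Ctrl insoluble in blue and NaAsO2 insoluble in red. The genes were chosen for their small adjusted p with and without NaAsO2 replicate 3, and in each of them the 3 NaAsO2 libraries lie apart from the 3 Ctrl libraries, and replicate 3 (triangles) lies with its group.

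Immediate early genes, which cells switch on within minutes of a stimulus without new protein synthesis, had the largest share of increases among the lists. Not all members of this list encode transcription factors. Of the 32 measured members, 25 rose and 0 fell, with a median log2 fold change of 1.51 (all genes -0.02), and without NaAsO2 replicate 3 the counts were 24 and 0. EGR1, a zinc finger transcription factor, stood at 51.3, 52.9 and 52.3 CPM in the Ctrl libraries and at 506, 420.4 and 287 CPM after NaAsO2. Its Ctrl libraries lay close together and far below all 3 treated ones, and the log2 fold change was 2.95 ± 0.17 (SE, adjusted p = 5.76e-11). FOS, a subunit of the AP-1 factor, went from 27.5, 26.3 and 25 CPM to 142, 150.4 and 177 CPM, a log2 fold change of 2.57 ± 0.14 (adjusted p = 5.45e-11). HES1, a repressor best known as a Notch target, was measured at 8.12, 9.98 and 9.66 CPM and then at 59.8, 63.0 and 79.0 CPM (log2 fold change 2.86 ± 0.16, adjusted p = 5.18e-11). ATF3, a stress-induced bZIP factor, had 15, 15.6 and 16.1 CPM in Ctrl and 63.6, 53.2 and 54.6 CPM after treatment. The treated values of ATF3 thus lay well above the Ctrl values, at a log2 fold change of 1.87 ± 0.11 (adjusted p = 7.09e-11). IER3, an early response gene that affects cell survival, rose by 2.65 ± 0.18, and ID1, an inhibitor of basic helix-loop-helix factors, by 2.71 ± 0.19, on the log2 scale. For ID1 the third replicate (339, 341 and 688 CPM against 69.2, 72.5 and 67.1 CPM in Ctrl) was far above the other two. JUN, the partner of FOS, had 196, 213 and 228 CPM and then 417, 487 and 1025 CPM, so that replicate 3 again read highest, and its log2 fold change of 1.60 ± 0.23 became 1.16 without that library (adjusted p = 3.56e-07). The members MAFK, SRF, JUND and ARC passed with all libraries but not without NaAsO2 replicate 3 (0.64, 0.79, 0.70 and 0.82).

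The promoter of EGR1 is shown because the serum response factor, which links kinase signals to immediate early genes, binds CArG boxes (CC, then 6 A or T, then GG). The window of 30 bases lies before the transcription start, from RefSeq promoters of build GRCh38.p14, on the plus strand at chr5:138465386-138465415, and its CArG box is in capitals.
EGR1: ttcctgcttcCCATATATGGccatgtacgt
Searched on both strands over the 300 bases around the start, 351 of 27305 promoters (1.29%) hold such a box, among them those of EGR1 and SRF, 2 of the 25 immediate early genes with a promoter in the reference. A match is a description of the letters and no measurement of binding.

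Regulators that damp the same signals rose with them. Of the 14 measured MAP kinase and AU-rich element feedback genes, 9 rose and none fell, at a median of 1.27, and 10 rose without NaAsO2 replicate 3. ZFP36L1 and ZFP36 encode proteins that bind AU-rich elements and speed the decay of short-lived mRNAs. ZFP36L1 had 186, 190.4 and 177 CPM in Ctrl and 739, 663 and 765 CPM after NaAsO2, and its increase of 1.97 ± 0.11 shared the smallest adjusted p of all genes (5.18e-11) with HES1. ZFP36 was at 4.87, 4.64 and 3.57 CPM and then at 32.9, 28.3 and 30.6 CPM (log2 fold change 2.81 ± 0.16, adjusted p = 5.76e-11). The phosphatase genes DUSP1 and DUSP2, whose products switch off MAP kinases, rose by 2.37 ± 0.23 and 3.22 ± 0.34, with DUSP2 at 45.4, 49.5 and 43.0 CPM in Ctrl and 225, 232 and 827 CPM after treatment. Replicate 3 was the highest library for both, and the values without it were 1.89 and 2.38. SPRY2, an inhibitor of receptor tyrosine kinase signalling, showed little spread, with 27.3, 28.7 and 27.3 CPM against 82.5, 83.7 and 73.6 CPM (log2 fold change 1.53 ± 0.11, adjusted p = 9.37e-10). TRIB1, a pseudokinase that guides proteins to degradation, had 39.9, 40.3 and 43.0 CPM and then 149, 147 and 147 CPM (1.85 ± 0.11, adjusted p = 8.55e-11), and SERTAD3, a cell cycle co-activator, rose by 2.21 ± 0.14. In the KLF family of zinc finger factors, 7 of 11 rose, or 4 without NaAsO2 replicate 3, among them KLF2 (1.84) and KLF10 (1.63). KLF16, at 1.28 with all libraries, was at 0.73 without that library and did not pass.

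Smaller shares of the NF-kB, p53 and integrated stress response lists rose, and no member of these 3 lists fell past the fold limit. With no fold limit, 11 integrated stress response genes were higher and 6 lower at an adjusted p below 0.05. The counts were 15 and 2 for the p53 list and 9 and 0 for the NF-kB list. With library size alone, 1 integrated stress response gene fell past the limit. Of 20 NF-kB feedback and cytokine genes, 5 rose (3 without NaAsO2 replicate 3), including NFKBIA, the inhibitor that retains NF-kB in the cytoplasm, with 32.8, 34.2 and 39.7 CPM in Ctrl and 93.5, 89.3 and 104 CPM after treatment (1.42 ± 0.11, adjusted p = 2.89e-09). IL11, NFKBIE and LIF reached 1.79, 1.42 and 1.22 but 0.82, 0.69 and 0.83 without replicate 3, and did not pass there. CXCL8, at 0.90 with all libraries, passed without it (1.23). Among 21 p53 and GADD45 stress genes, 6 rose (5 without that library, where GADD45A and AEN did not pass and MDM2 did). TP53INP1, a p53-induced autophagy regulator, rose by 1.47 ± 0.21, BBC3, which encodes the pro-apoptotic protein PUMA, by 1.92 ± 0.26, and GADD45B, an activator of stress kinases, by 1.51 ± 0.17. The integrated stress response is the programme that follows eIF2 phosphorylation and is run by ATF4. Of its 24 genes, 9 rose (5 without NaAsO2 replicate 3). ATF4 itself had 136, 155 and 136 CPM in Ctrl and 303, 294 and 686 CPM after NaAsO2, replicate 3 standing far above the other two (log2 fold change 1.59 ± 0.21, 1.14 without it, both past the thresholds). PPP1R15A, which brings a phosphatase to eIF2, rose by 1.83 ± 0.23, DDIT4, an inhibitor of mTOR, by 1.99 ± 0.27, and DDIT3, the CHOP transcription factor, by 1.44 ± 0.20. DDIT3 had 4.44, 4.64 and 2.32 CPM in Ctrl and 11.7, 8.07 and 11.1 CPM after treatment, and it overlaps 3 other tested genes, MARS1, MIR616 and MBD6, whose reads the strandless counting cannot tell apart from its own.

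Heat shock genes went both ways in the exon counts. Of 33 measured chaperones and co-chaperones, 5 rose and 1 fell (1 and 1 with the GC trend removed) at a median of -0.044, close to the -0.02 of all genes, and 2 rose and 1 fell without NaAsO2 replicate 3. HSPA6, a strictly inducible HSP70, had 1.08, 1.71 and 1.83 CPM in Ctrl and 5.34, 4.77 and 11.1 CPM after NaAsO2 (log2 fold change 2.13 ± 0.35, adjusted p = 8.54e-05). DNAJB1, the HSP40 co-chaperone, had 69.7, 76.6 and 79.4 CPM and then 148, 156 and 192 CPM (1.13 ± 0.15, adjusted p = 5.14e-06). The near-identical HSPA1A and HSPA1B, between which reads may be shared or lost, reached 1.19 and 1.14, and 0.89 and 0.74 without NaAsO2 replicate 3, under the limit of 1. The constitutive chaperones HSPA8 and HSP90AB1 had log2 fold changes of -0.81 (adjusted p = 0.00018) and -0.60 (adjusted p = 0.000656), under the fold limit. Heat shock elements, the sites of HSF1, are shown for 4 of these genes, with the inverted repeat of the motif (GAANNTTC or TTCNNGAA, both strands) in capitals.
HSPA6: gaaaggttcgcGAAAGTTCgcggcggcggg
HSPA1A: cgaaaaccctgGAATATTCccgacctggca
HSPA8: ggccccttctgGAAGGTTCtaagatagggt
DNAJA1: aaagggctccaGAAGATTCcacgagcgccg
These 30-base windows (RefSeq, GRCh38.p14) lie at chr1:161524460-161524489 (plus strand), chr6:31815426-31815455 (plus), chr11:123062168-123062197 (minus) and chr9:33025064-33025093 (plus). The motif is held by 12 of the 29 heat shock genes with a promoter in the reference (41.4%) and by 3738 of all 27305 promoters (13.7%).

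Metallothioneins, small cysteine-rich proteins that bind zinc, cadmium and arsenic, held the largest fitted fold change of any list member, that of MT1G. Of 6 measured members of the metallothionein and zinc exporter list, 3 rose, with and without NaAsO2 replicate 3. MT1X had 11.7, 7.06 and 8.69 CPM in Ctrl and 74.2, 59.0 and 93.0 CPM after NaAsO2 (log2 fold change 3.04 ± 0.20, adjusted p = 3.81e-10). MT1G was close to absent in Ctrl at 0.108, 0 and 0.869 CPM, Ctrl replicate 2 holding 0 counts, and stood at 9.32, 6.04 and 15.8 CPM after treatment (4.87 ± 0.52, adjusted p = 4.39e-07, a value that depends on the prior count). MT1E rose by 1.39 ± 0.13, and MT2A went from 238, 222 and 229 CPM to 341, 351 and 367 CPM, a log2 fold change of 0.62 that stayed under the limit of 1. The paralogs are similar in sequence, so that counts of single members are uncertain. The core of the metal response element (TGCACNC or TGCGCNC, both strands), the site of MTF1, is shown for MT1X at chr16:56682406-56682435 (plus strand, GRCh38.p14) in capitals.
MT1X: ggcggggcctcTGCGCCCggccctcttccc
Its promoter holds 4 such cores, and 8014 of 27305 promoters (29.3%) hold at least 1. Of 27 measured NRF2 and BACH1 targets, 3 rose and 2 fell, the decreases at a share near the 8.37% of all genes. The counts without NaAsO2 replicate 3 were the same, but the rising members were not. HMOX1, heme oxygenase 1, had 9.74, 11.3 and 13.6 CPM in Ctrl and 40.1, 39.5 and 39.0 CPM after NaAsO2 (1.77 ± 0.15, adjusted p = 1.08e-08), and MAFG, a small MAF partner of NRF2, rose by 1.49 ± 0.19. SRXN1, at 1.28, was at 0.67 without that library.

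The 12 genes that fell with the smallest adjusted p are described as single genes, with no test of what they share. All of them, other than the noncoding SNHG3, encode proteins of the ER, the lysosome or a membrane, or a secreted protein. SERPINA1, the secreted inhibitor alpha-1 antitrypsin, fell from 83.6, 75.5 and 85.7 CPM to 22.8, 24.9 and 19.4 CPM (log2 fold change -1.86 ± 0.11, adjusted p = 7.09e-11). HSP90B1, the ER form of HSP90, had 614, 582 and 685 CPM in Ctrl and 219, 226 and 152 CPM after NaAsO2 (-1.65 ± 0.12, adjusted p = 2.89e-09). PDIA3, a disulfide isomerase of the ER, was at 442, 414 and 491 CPM and then at 169, 171 and 139 CPM (-1.49 ± 0.11, adjusted p = 1.84e-09). In each of these 3 genes the highest treated library lay far below the lowest Ctrl library. CD9, a tetraspanin of the cell surface, fell by 1.78 on the log2 scale, from 134, 127 and 123 CPM to 40.2, 41.8 and 29.6 CPM. ADGRE5, an adhesion receptor, had a log2 fold change of -1.73 ± 0.13, CLPTM1, a membrane protein, of -1.59 ± 0.11, and WLS, the carrier of Wnt proteins, of -1.33 ± 0.10. DDOST, a subunit of the oligosaccharyltransferase that attaches N-glycans, had 465, 428 and 462 CPM in Ctrl and 173, 194 and 175 CPM after treatment (-1.32 ± 0.09, adjusted p = 9.37e-10). For P4HA1, the collagen prolyl hydroxylase, the value was -1.46 ± 0.11, for LAMP1, a lysosomal membrane glycoprotein, -1.30 ± 0.10, and for HEXA, a lysosomal hexosaminidase, -1.31 ± 0.09. Without NaAsO2 replicate 3, which the choice of these genes already took into account, the values lay between -1.87 for SNHG3 and -1.22 for LAMP1, with ADGRE5 at -1.82.

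Over the list of 24 ER chaperones and unfolded protein response genes, 5 fell and 1 rose at a median of -0.54, and 5 fell and none rose without NaAsO2 replicate 3. Their summed level was 6833, 6549.5 and 7582 CPM in Ctrl and 3927, 4248 and 4936 CPM after NaAsO2, with no overlap. The increase was that of SDF2L1 (1.40), which rested on replicate 3 (20.2, 19.2 and 132 CPM against 19.9, 23.9 and 20.1 CPM in Ctrl) and read -0.047 without it. Among 36 secreted and extracellular matrix genes, 8 fell (7 without NaAsO2 replicate 3) and none rose, at a median of -0.52. Without that library FN1 (-0.94), PLOD2 (-0.84) and LOX (-0.91) did not pass, and SPARC (-1.08) and LOXL2 (-1.05) did. LUM, the proteoglycan lumican, fell by 1.46 and PLOD1, a collagen lysyl hydroxylase, by 1.23, on the log2 scale. COL1A1, with 1733, 1556 and 1942 CPM in Ctrl and 1166, 1439 and 7843 CPM after NaAsO2, had a log2 fold change of 1.00 with all libraries and -0.35 without replicate 3, neither past the thresholds.

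**Figure D3:**
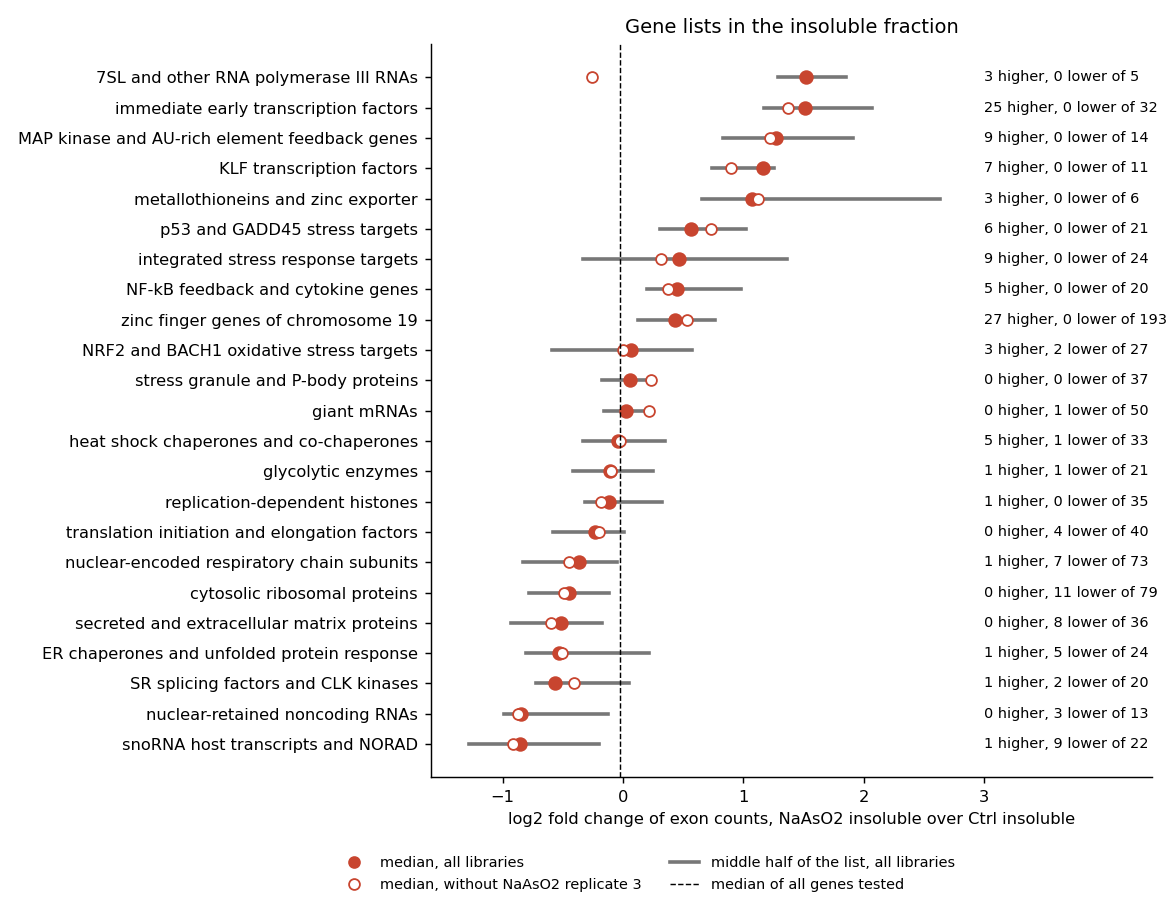
Median log2 fold change of the exon counts (x axis) of each gene list, with all libraries (filled circles) and without NaAsO2 replicate 3 (open circles), and the range between the quartiles of each list's genes (bars). The dashed line is the median of all genes tested (-0.02) and the numbers at the right count the genes called, with the immediate early list at 1.51 and 1.37 and the RNA polymerase III list at 1.52 and -0.26.

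Genes of the translation machinery and of energy metabolism were mostly under the fold limit. Of 79 cytosolic ribosomal protein genes, 11 fell and none rose, at a median of -0.45. That median was below the median of all genes also with RLE factors (-0.39) and with library size alone (-0.54). Without NaAsO2 replicate 3, 6 fell, a share near the 6.02% of all genes, and with the GC trend removed 6 fell and 1 rose. RPL36A went from 14.4, 13.1 and 12.4 CPM to 4.06, 2.53 and 2.37 CPM (-2.13 ± 0.23), whereas RPL32, at -1.21, did not pass without replicate 3. Ribosomal protein genes have many processed pseudogenes, with which they can share or lose reads. Among 40 translation factors, 4 fell, a share near the 8.37% of all genes (1 in the 6 libraries fitted alone and none with the GC trend removed). They were EEF1E1 (-1.25) and the eIF3 subunits EIF3E (-1.22), EIF3H (-1.21) and EIF3L (-1.04). Without replicate 3 these were at -0.98, -0.89, -0.77 and -0.61 and did not pass, and 2 others did, EIF3C (-1.26) and EIF4A1 (-1.29). Of 73 respiratory chain subunits, 7 fell, again a share near the 8.37% of all genes, and 1 rose (3 fell and none rose without replicate 3). NDUFV2, of complex I, fell by 1.66 on the log2 scale, from 22, 21.9 and 22.3 CPM to 8.82, 7.09 and 4.63 CPM, and ATP5F1C, of the ATP synthase, had -1.38. COX6A1, of complex IV, was at -1.40 and did not pass without replicate 3. The 21 glycolytic genes held 1 increase, PFKFB3 (1.06), and 1 decrease, LDHB (-1.36), neither of which passed without replicate 3. GAPDH, often taken as a reference gene, had 758, 882 and 744 CPM in Ctrl and 450.3, 475 and 399 CPM after NaAsO2 (-0.85, adjusted p = 7.41e-05), and ACTB had -0.11 (adjusted p = 0.603).

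Noncoding RNAs went both ways. NORAD, a long noncoding RNA that binds PUM proteins, had 222, 215 and 219 CPM in Ctrl and 577, 589 and 724 CPM after NaAsO2. Its Ctrl libraries were nearly equal and all treated libraries lay far above them, and the log2 fold change was 1.53 ± 0.10 (adjusted p = 9.37e-10). In contrast, 9 of the other 21 members of its list, the host transcripts of snoRNAs, fell. Without NaAsO2 replicate 3 the count was again 9, but the members differed. SNHG1 (-0.93), SNHG19 (-0.95) and DANCR (-0.76) no longer passed there, and SNHG10 (-1.25), SNHG12 (-1.06) and SNHG17 (-1.17) did. SNHG3 went from 141, 116 and 107 CPM to 36.6, 27 and 28.3 CPM (-1.99 ± 0.13, adjusted p = 6.45e-10). It overlaps RCC1 and SNORA73B. SNHG5 had 14.8, 15.6 and 11.1 CPM and then 4.48, 2.04 and 5.22 CPM (-1.86 ± 0.29), and ZFAS1 fell by 1.66 on the log2 scale. MALAT1, an abundant nuclear RNA of speckles, stood at 6857, 5761 and 5228 CPM in Ctrl and 2447, 1978 and 1315 CPM after treatment (-1.64 ± 0.20, adjusted p = 3.17e-06). Of the 13 nuclear-retained RNAs measured, MALAT1, JPX (-1.52) and FTX (-1.20) fell and none rose, and the summed level of the list was 9628, 8129 and 7689 CPM in Ctrl and 4174, 3435 and 2967 CPM after NaAsO2. Over all 2808 lncRNAs tested, 81 rose and 567 fell at a median of -0.44, and 37 rose and 441 fell without NaAsO2 replicate 3, against 849 and 613 of 13439 protein-coding genes, or 393 and 374 without that library. RN7SL1 was at 8292, 7839.6 and 6841 CPM in Ctrl and 4127, 8025 and 70837 CPM after NaAsO2, so that the groups overlapped. RN7SL1 and its copies led the list of 5 measured RNA polymerase III RNAs, of which 3 passed as higher with all libraries and none without NaAsO2 replicate 3. Its value of 1.85 ± 0.61 (adjusted p = 0.0176) and that of its near-identical copy RN7SL3 (2.09) turned to -0.26 and -0.13 without replicate 3.

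None of the 37 mRNAs of stress granule and P-body proteins passed (median 0.055), with or without NaAsO2 replicate 3, where 14% and 8.58% of all genes did. Of 50 giant mRNAs, 1 fell, the spindle gene ASPM (-1.05, and -0.67 without replicate 3), and the median was 0.026, or 0.21 without that library. By exon length, the shortest of 10 classes of genes (54 to 1338 bases) had a median of -0.38, with 88 genes higher and 352 lower (25 and 303 without NaAsO2 replicate 3), and the class of 11314 bases or more a median of -0.10, with 18 higher and 107 lower (13 and 55). Without NaAsO2 replicate 3 these medians were -0.43 and 0.03. Of 20 SR splicing factors and CLK kinases, SRSF8 rose (1.02 ± 0.11) and SRSF11 (-1.16) and CLK4 (-1.12) fell. Both directions were near the shares of all genes (5.61% higher and 8.37% lower), and the decreases did not pass without replicate 3. The 35 replication-dependent histones held 1 increase, H4C2 (1.74), which came from that library (60.7, 78.3 and 604 CPM against 73.7, 77.5 and 70.8 CPM in Ctrl) and read -0.019 without it. Of 193 zinc finger genes of chromosome 19, 27 rose (33 without replicate 3) and none fell, at a median of 0.43. Of its largest changes, ZNF844 (1.96), ZNF579 (1.46) and ZNF358 (1.30) were under the limit of 1 without replicate 3 (0.77, 0.76 and 0.70).

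The intron counts of the same 6 libraries gave a second view. Introns can mark new, unspliced or exported precursor RNA and stable introns alike. They made up 36.3%, 33.3% and 30.5% of the exon plus intron counts in Ctrl and 24.3%, 17.2% and 22.7% after NaAsO2, so that the groups did not overlap. The means were 33.4% ± 2.86 and 21.4% ± 3.72 (SD, n = 3), a difference of -11.9 points with p = 0.1 in an exact two-sided permutation test, the smallest that 3 libraries against 3 allow. Of 17406 genes tested by introns, 2426 passed (13.9%), 1760 higher (10.1%) and 666 lower (3.83%). Without NaAsO2 replicate 3, 1438 passed (8.26%), 875 higher (5.03%) and 563 lower (3.23%). Among the 13116 genes tested in both tables, 209 were higher and 50 lower in both, 11 were higher by exons and lower by introns, and 11 the reverse. Without NaAsO2 replicate 3, 50 were higher and 24 lower in both. Strandless counting can place exon fragments of an overlapping gene in an intron.

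Several of the stress genes described above also rose by introns. HMOX1 introns were at 5.41, 3.60 and 5.25 CPM in Ctrl and 147, 135 and 186 CPM after NaAsO2, a log2 fold change of 5.02 ± 0.22 (adjusted p = 6.50e-16) beside 1.77 for its exons. ATF3 introns had 18.4, 18.4 and 21.7 CPM and then 171, 155 and 204 CPM (3.18 ± 0.17, adjusted p = 9.77e-14). MT1E reached 3.31 ± 0.19, MT1G 6.59 ± 0.60, DUSP2 4.04 ± 0.36 and FAM53C 2.28 ± 0.16. With the 6 libraries fitted alone, the adjusted p of the same test was larger, 6.83e-05 for HMOX1, 0.000238 for ATF3 and 0.0108 for MT1G. Of the 26 heat shock list members tested by introns, 17 rose and 1 fell at a median of 1.15 (0.087 for all genes tested by introns), and 13 rose and none fell without NaAsO2 replicate 3. HSP90AB1, the constitutive cytosolic HSP90, had intron levels of 71.2, 69.7 and 68.2 CPM in Ctrl and 210.1, 179 and 212 CPM after treatment (1.52 ± 0.13, adjusted p = 1.01e-08), and exon levels of 2406, 2816 and 3170.4 CPM and 1917, 1962 and 1655 CPM (-0.60 ± 0.12). The Ctrl and NaAsO2 libraries did not overlap in either table, and the sign of the value, each relative to its own table, was opposite. HSPA8, the constitutive HSP70, had introns at 12.3, 12.6 and 9.13 CPM and then 38.5, 28.8 and 85.9 CPM (2.15 ± 0.27, adjusted p = 2.01e-06), with exons at -0.81. BAG3, a co-chaperone of HSP70, had 2.17 ± 0.17 by introns and 0.57 by exons, DNAJA1, an HSP40, 1.97 ± 0.18 and -0.18, and HSPH1, an HSP110, 1.69 ± 0.16 and -0.34. HSF2 was the decrease, at -1.06. Exon and intron counts were scaled separately, each to its own library totals, and the intron share itself fell after NaAsO2. The intron and exon log2 fold changes of a gene thus have different baselines, and their difference was not tested.

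**Figure D4:**
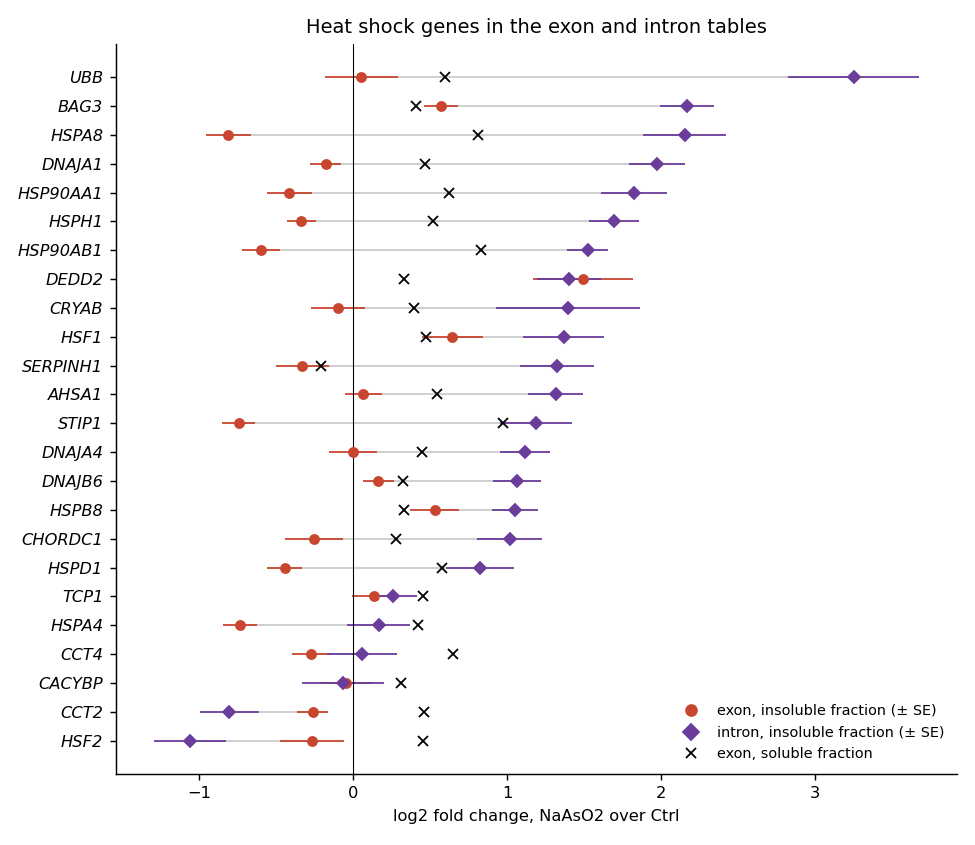
Log2 fold change with NaAsO2 (x axis, bars are SE) of heat shock genes measured in both tables, for exons (red circles) and introns (purple diamonds) of the insoluble fraction and exons of the soluble fraction (crosses). Introns of HSPA8, HSP90AB1 and HSPH1 lie above 1 while their insoluble exons lie below 0 and their soluble exons between 0.5 and 1. Exon and intron counts were scaled separately.

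The introns that fell with the smallest adjusted p included those of TAF1D, a subunit of an RNA polymerase I factor, with 43.9, 43.8 and 39.7 CPM in Ctrl and 8.47, 4.98 and 3.70 CPM after NaAsO2 (-2.82 ± 0.25, adjusted p = 1.01e-08). NIFK, a nucleolar protein gene, had 41.8, 37.1 and 38.1 CPM and then 7.26, 8.19 and 12.2 CPM (-2.10 ± 0.21), and the snoRNA host SNHG6 29.2, 30.3 and 29.2 CPM and then 7.26, 9.61 and 8.14 CPM (-1.84 ± 0.18). EIF3M (-2.12 ± 0.24), the chaperonin subunit CCT5 (-1.41 ± 0.14), DHRS2 (-1.34 ± 0.14), TMX1 (-1.95 ± 0.21) and BOD1 (-1.76 ± 0.19) fell as well. Exons of the 8 genes were between -1.54 for TAF1D and -0.25 for BOD1. Introns of ribosomal protein genes fell in 21 of 61 cases and rose in 2, at a median of -0.78, and in 26 cases fell and in 1 rose without NaAsO2 replicate 3. The introns of RPL37 had -2.13 and those of RPL31 -2.05, beside -0.80 and -0.86 for their exons. Many ribosomal protein introns contain snoRNAs.

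Whether NaAsO2 acted alike on both fractions was tested as the difference between its effects in the insoluble and soluble fractions. That difference passed for 1689 genes (9.56%), 807 with a more positive change in the insoluble fraction (4.57%) and 882 with a more negative one (4.99%). The split was 940 and 745 with RLE factors and 1129 and 514 with library size alone, and leaving out NaAsO2 replicate 1 of the insoluble fraction gave 2898 genes, 1985 more positive and 913 more negative. The fractions came from shared lysates, and with the lysate as a block 1518 genes passed, 662 more positive and 856 more negative. In the soluble fraction alone, 296 genes passed (1.68%), 87 higher (0.492%) and 209 lower (1.18%). NORAD led the list, with soluble levels of 298, 279 and 276 CPM in Ctrl and 178, 188 and 169.9 CPM after NaAsO2 (log2 fold change -0.67), opposite to its insoluble change, and a difference of 2.19 ± 0.15 (adjusted p = 7.52e-09). LRRC58, a leucine-rich repeat protein gene, had 1.39 in the insoluble and -0.69 in the soluble fraction, a difference of 2.09 ± 0.16. ZCCHC14, a zinc finger protein gene, had a difference of 1.78 ± 0.12, and POMK, a kinase that acts on dystroglycan, of 1.85 ± 0.15, with 3 soluble NaAsO2 libraries at 116, 107 and 105 CPM under 268, 257 and 255 CPM in Ctrl. The RNA helicase gene DDX1 (-1.75 ± 0.15), the coatomer gene COPG1 (-1.75 ± 0.15) and the co-chaperone gene STIP1 (-1.72 ± 0.15) had differences of the opposite sign. STIP1 had 137, 168 and 153 CPM in soluble Ctrl and 293, 276 and 329 CPM in soluble NaAsO2 libraries, and 199, 249 and 234 CPM and 139, 136 and 132 CPM in the insoluble ones.

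By group, the difference between fractions was more positive for 12 of 32 immediate early genes, 8 of 14 MAP kinase feedback genes and 18 of 193 chromosome 19 zinc finger genes, with none more negative in these lists. It was more negative for 28 of 79 ribosomal protein genes, 28 of 73 respiratory chain genes, 7 of 33 heat shock genes and 5 of 24 ER genes, with none more positive. These group counts include NaAsO2 replicate 3 of the insoluble fraction and were not made without it. The median change of ribosomal protein mRNAs was 0.43 among soluble and -0.45 among insoluble libraries, and that of ER chaperone genes -0.23 beside -0.54. Of the 6 metallothionein list members, 3 rose in the soluble fraction too: no member passed the test of the difference, and MT1X had a soluble value of 3.37 and MT1G of 5.38. HMOX1 was at 1.90 and FOS at 2.29 in the soluble fraction, beside 1.77 and 2.57 in the insoluble one.

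**Figure D5:**
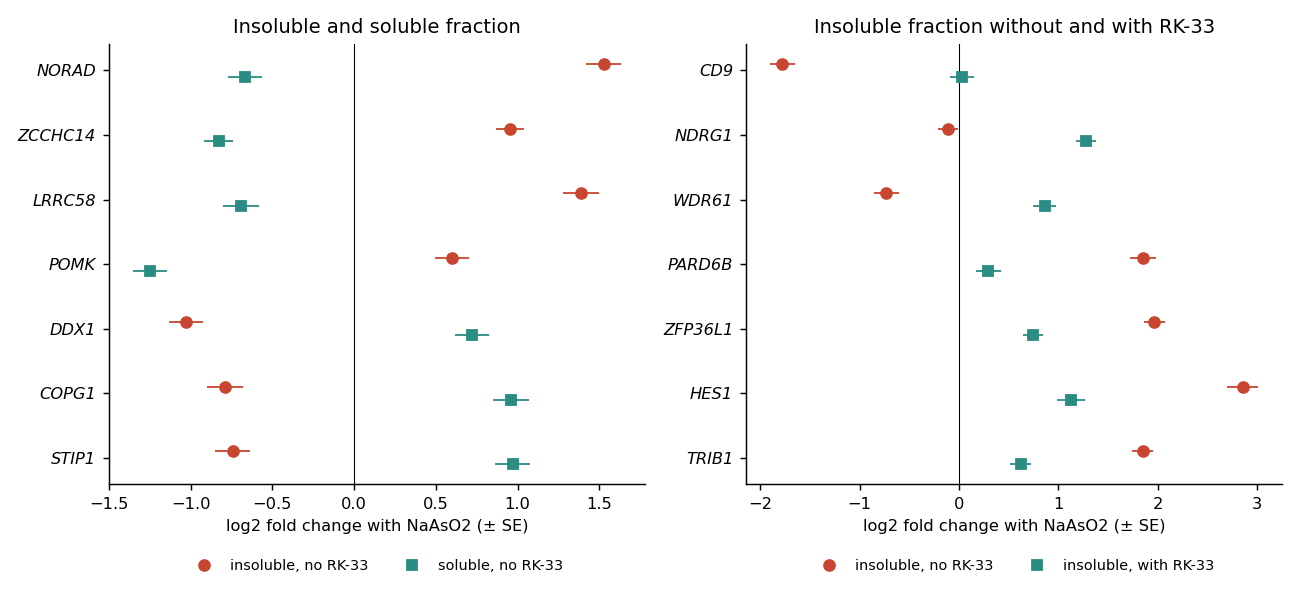
Log2 fold change with NaAsO2 (x axis, bars are SE) of genes with the smallest adjusted p for a difference between fractions (left) and for a difference with RK-33 (right). NORAD, ZCCHC14, LRRC58 and POMK are above 0 in the insoluble and below 0 in the soluble fraction and DDX1, COPG1 and STIP1 the reverse, and with RK-33 the value of CD9 is 0.03.

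The cells given RK-33 before NaAsO2 share no library with the comparison above. Against RK-33 alone, 463 genes passed in their insoluble fraction (2.62%), 218 higher (1.23%) and 245 lower (1.39%). Of the 286 genes that rose without RK-33 both with and without NaAsO2 replicate 3, 256 had a change above 0 with RK-33, at a median of 0.44, and 46 rose. Of the 851 that fell both ways, 750 had a change below 0 with RK-33, at a median of -0.58, and 120 fell, while among all genes 51.8% were above 0. The difference between the 2 effects passed for 702 genes (3.97%), 438 more positive with RK-33 (2.48%) and 264 more negative (1.49%), or 362 and 354 with RLE factors. This count rested on single libraries: it was 1766 and 1244 without NaAsO2 replicates 1 and 2, and 421, 430 and 1577 without replicates 1, 2 and 3 of RK-33 with NaAsO2. With RK-33, 14 of 32 immediate early genes, 5 of 33 heat shock genes and 4 of 6 metallothionein list members rose and none fell. The difference was more negative with RK-33 for 9 of 32 immediate early genes, and more positive for 1, FOSB (3.04 with RK-33, 1.68 without). It was more negative for 7 of 14 MAP kinase feedback genes, and more positive for 5 of 24 ER genes and 8 of 22 members of the snoRNA host list. These group counts of the difference include NaAsO2 replicate 3 and were not made without it. ZFP36L1 had 229, 218 and 232 CPM with RK-33 and 375, 424 and 338 CPM with RK-33 and NaAsO2, a change of 0.74 and a difference of -1.22 ± 0.14 (adjusted p = 2.42e-05). HES1 (-1.73 ± 0.21) and TRIB1 (-1.22 ± 0.15) had differences of the same sign, from RK-33 levels of 23.7, 24.5 and 21.6 CPM and 98.1, 107 and 102 CPM that were already above those of Ctrl, 8.12, 9.98 and 9.66 CPM and 39.9, 40.3 and 43.0 CPM. PARD6B, a cell polarity gene, rose without RK-33 from 20.1, 18.1 and 23.4 CPM to 70.9, 65.8 and 86.9 CPM and had 47.1, 38.9 and 41.1 CPM and 52.7, 55.7 and 47.8 CPM with it (difference -1.56 ± 0.18). In the other direction, CD9 had 58.2, 47.0 and 45.3 CPM with RK-33 and 54.7, 52.9 and 46.7 CPM with both compounds, a change of 0.035 from a starting level already under that of Ctrl (difference 1.81 ± 0.17, adjusted p = 5.00e-06). NDRG1, a stress-responsive gene, was at 73.2, 82.5 and 86.8 CPM in Ctrl and 75.8, 69.7 and 79.6 CPM after NaAsO2 alone, but at 79.6, 83.9 and 82.1 CPM and then 197, 202 and 196 CPM with RK-33 (difference 1.38 ± 0.14, adjusted p = 8.81e-06), and WDR61, of the PAF1 and SKI complexes, had a difference of 1.59 ± 0.17.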

How the data were processed

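RNA of the soluble and insoluble fractions of 12 lysates of U2OS cells was sequenced, giving 24 libraries in 8 groups of 3 replicates, of which 6 form the comparison reported. The authors aligned the reads to GRCh38.p13 and deposited tables of raw counts per gene over exons (60308 genes) and over introns (37473 genes, with at least 25 bases of overlap), made with featureCounts on GENCODE 40. The submitters' processing notes name STAR 2.7.2b, SAMtools 1.2 and Subread. The counting used no strand, so that reads of overlapping genes cannot be told apart, and 22 of the 84 genes selected for naming from the exon counts overlap another tested gene. The 37 mitochondrial genes were at 0 in every library, and no column belonged to another sample. The circular and linear junction tables were not used here.

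Genes whose entries were too long for a cell and ran over several lines were rejoined (1 exon and 21 intron genes). Genes that averaged 1 CPM or more were fitted by edgeR 4.0.16 (R 4.3.3) with TMM factors and its quasi-likelihood test over all 24 libraries, and genes were called when the p-value, adjusted after Benjamini and Hochberg, was below 0.05 and the log2 fold change was 1 or more in size. Levels are CPM over TMM-scaled library sizes, and differences are log2 fold changes ± SE. Alternatives were RLE factors, library size alone, DESeq2 1.42.0, edgeR's likelihood ratio test, other filters and fold limits, a replicate block, a fit restricted to the groups in question and each library left out in turn. Removal of the trend with GC content (from GENCODE 44, 98.5% of tested genes) the fit of the compared groups alone without NaAsO2 replicate 3, and a block for the lysate that the fractions of a number share, were chosen after seeing the data. The intron share was tested by exact permutation. The fit was tested on simulated data.

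The members of the comparison and the gene lists were chosen with earlier results of these data known. Genes were named by rule: in each direction the 12 with the smallest adjusted p by exons and the 8 by introns, with a mean of at least 10 CPM and called also without NaAsO2 replicate 3, up to 3 called members of each list with the largest change and a mean of at least 5 CPM, 16 stress and reference genes, and 4 genes in each direction for each difference of effects. Other genes named as members of a list, or for their introns, were chosen after their values were seen, and some genes that the rule selects are not reported here. Promoter motifs were searched in RefSeq promoters of GRCh38.p14 (250 bases before and 50 after the start, 27305 promoters), the first entry of a symbol. Python 3.11.15 with numpy 2.4.6, pandas 2.3.3 and matplotlib 3.10.9 was used.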

Additional observations from a re-analysis of the deposited data

Results flagged for a closer look

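The effect of NaAsO2 was tested for a difference between fractions, and 1689 genes passed. Genes with the smallest adjusted p were NORAD (difference in log2 fold change, insoluble minus soluble, 2.19), LRRC58 (2.09), POMK (1.85), ZCCHC14 (1.78), COPG1 (-1.75), DDX1 (-1.75) and STIP1 (-1.72). All 3 NaAsO2 libraries were on opposite sides of all 3 Ctrl libraries in the 2 fractions for NORAD.

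The difference of the effect in the insoluble fraction with RK-33 minus without it passed for 702 genes. Among those with the smallest adjusted p were CD9 (1.81), WDR61 (1.59), NDRG1 (1.38), HES1 (-1.73), PARD6B (-1.56), TRIB1 (-1.22) and ZFP36L1 (-1.22).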

How the results depend on the processing

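The exon call count (2470) was 1043 with a mean of at least 10 CPM, 931 with the compared groups alone, 126 with a log2 limit of 2, 7606 with no fold limit and 1517 to 3684 with 1 library left out. The intron count (2426) was 1466 with the GC trend removed, 1270 with at least 10 CPM, 977 with the compared groups alone, 1513 with those groups without NaAsO2 replicate 3, 337 with a limit of 2, 5455 with no limit and 1438 to 3238 with 1 library left out. The count of differences between fractions (1689) was 88 with a limit of 2, 3943 with no limit and 1345 to 2898 with 1 library left out. That of differences with RK-33 (702) was 195 with the compared groups alone, 71 with a limit of 2, 2057 with no limit and 421 to 1766 with 1 library left out. The intron share difference stayed between -13.4 and -9.84 points. With the GC trend removed 1750 exon genes passed, 1322 of them among the 2470. The cause of these shifts was not tested, apart from the limits and filters, which change the genes that can pass.

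With the replicate numbers as a block, the counts were 2454 (exon), 2398 (intron), 1753 (between fractions) and 784 (RK-33), and 1518 differences between fractions with the lysate as the block, and the share difference was -11.9 points with p = 0.25 in an exact sign-flip test, the smallest that 3 pairs allow. The numbers did not pair Ctrl with NaAsO2 libraries, whose same-numbered deviations correlated at r = 0.07, -0.06 and -0.06. Between the fractions of a lysate r was -0.049 to 0.14 across the 6 lysates.

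Over 116 genes and effects selected for naming, 1921 of 2035 alternative values kept direction and call, 106 kept the direction but lost the call and 7 reversed. The reversed values were SDF2L1 (-0.047), H4C2 (-0.019), RN7SL3 (-0.13) and RN7SL1 (-0.26) without NaAsO2 replicate 3, against 1.85, 2.25, 2.64 and 2.41 without replicate 1, and SDF2L1 (-0.021), RN7SL3 (-0.10) and RN7SL1 (-0.23) in the compared groups alone without it. The 3 replicates a group and 13345445 to 18005839 counts a library limit the precision of low genes.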
